A study of Mus musculus with 12 samples.

Results

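PKO-1, a clone of mouse embryonic fibroblasts (MEFs) from which *Pnpt1* had been deleted, was compared with rho0 MEFs, which kept *Pnpt1* and had lost mitochondrial DNA (mtDNA) through a drug. The comparison holds 6 of the 12 libraries of the series, chosen by their labels: 3 PKO-1 and 3 rho0 cultures. Both lines descend from TM6, an SV40 large T-antigen immortalized *Pnpt1* fl/fl MEF line of strain C57BL/6J, and all lines were grown with uridine at 50 µg/mL. The genotype label of every line, PKO-1 included, is Pnpt1 neo-flox/neo-flox, and what separates them is the treatment label. For rho0 this is ditercalinium dichloride dihydrochloride, a DNA-binding drug given at 750 ng/mL for 3 weeks, after which a colony was grown from 1 cell. For PKO-1 it is an adenovirus that expresses Cre recombinase, again followed by growth from 1 cell. Each line is therefore 1 clone, and the effect of the deletion, of the drug, of the way mtDNA was lost and of descent from another founder cell cannot be told apart. The 3 libraries of a line are cultures of that clone, so every p-value measures the spread between cultures. The study describes both lines as lacking mtDNA. The gene table holds 0 mtDNA-encoded genes, so this was not checked here. The other 6 libraries are 3 of TM6 and 3 of a further *Pnpt1* knockout clone, PKO-6, and serve to place a value. They were also part of the fit, so they enter the expression filter, the scaling and the spread behind every p-value. A fit of the 6 compared libraries alone is given in the closing section.

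PNPase (polynucleotide phosphorylase) is a 3′ to 5′ exoribonuclease of mitochondria. With the helicase SUV3, encoded by *Supv3l1*, it degrades mitochondrial RNA, and it has also been linked to RNA import into the organelle. Cells without mtDNA cannot respire, depend on glycolysis, and need uridine because dihydroorotate dehydrogenase passes its electrons to the respiratory chain. Mitochondrial dysfunction is known to activate the integrated stress response, in which kinases phosphorylate eIF2α and the transcription factor ATF4 induces genes of amino acid synthesis, tRNA charging and one-carbon metabolism. The comparison asks what differs between cells that lost mtDNA after loss of PNPase and cells that lost it by drug.

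Cre removed the loxP-flanked exon 2 of *Pnpt1*. The gene lies on the plus strand of chromosome 11 (GRCm38, 29130751 to 29161828) and has 28 exons in the annotated transcript. Exon 2 spans chr11:29132845-29132905 and holds 61 bases, which leaves a remainder of 1 after division by 3, so that its loss shifts the reading frame. It is shown because it is the only stretch of *Pnpt1* known to differ between the lines, and it was read from the GENCODE M21 transcript, written here in lower case:
Pnpt1 exon 2: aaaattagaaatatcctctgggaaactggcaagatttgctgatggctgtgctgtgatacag

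*Pnpt1* was counted over the whole gene, so reads from the remaining exons still count in the knockout. Its normalized counts (counts scaled for library size) were 5051, 5251 and 5510 in the rho0 libraries. In the PKO-1 libraries they were 1254, 1191 and 1276. The groups did not overlap and *Pnpt1* RNA was 4.25-fold lower in PKO-1, a log2 fold change of -2.09 (SE 0.0874; adjusted p = 2.41e-10 by edgeR's quasi-likelihood test with Benjamini-Hochberg adjustment). TM6 averaged 3131 normalized counts of *Pnpt1* and PKO-6 averaged 1944, so the rho0 level lay above that of the untreated parent line. The targeted gene thus went in the direction of its label. *Supv3l1*, which encodes the helicase partner of PNPase, had 2106, 2152 and 2165 in rho0 and 2462, 2492 and 2413 in PKO-1, a log2 difference of 0.20 (SE 0.0468) that was not called.

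**Figure D1:**
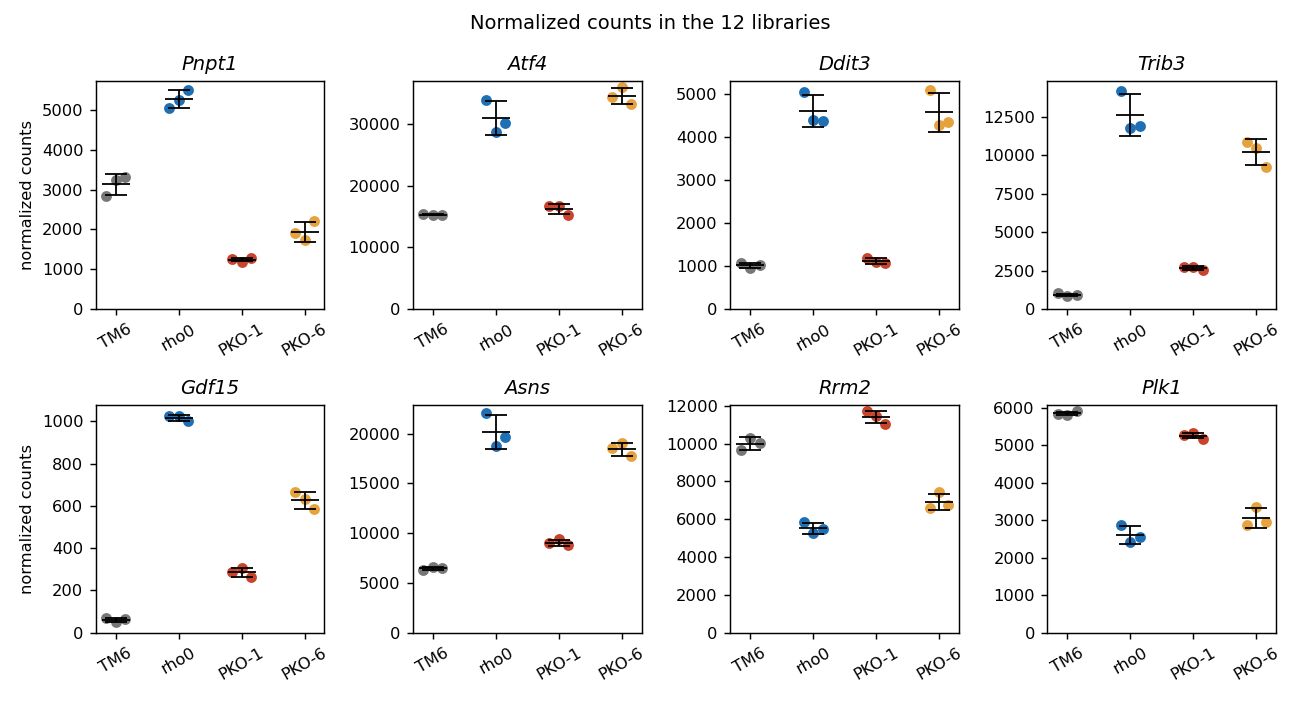
Normalized counts (y axis, linear, from 0) of 8 genes in the 3 libraries of each line (points), with the mean and SD as black bars. *Pnpt1*, *Atf4*, *Ddit3*, *Trib3*, *Gdf15* and *Asns* were lower in every PKO-1 library than in every rho0 library, and *Rrm2* and *Plk1* were higher.

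The libraries held 47164860 to 54344410 counts in PKO-1 and 48900025 to 62222928 in rho0, of which 13.2% to 19.6% came from *Rn45s*, a precursor of ribosomal RNA. Correlations of log counts were 0.9949 to 0.9956 between PKO-1 libraries, 0.9911 to 0.9957 between rho0 libraries and 0.9509 to 0.9595 between the lines. Replicate 1 of rho0 stood apart from the other two: the chi-square of counts per degree of freedom was 79.5 and 60.1 against them, compared with 4.38 between them, and its *Rn45s* share was the highest of the 6. Its mean fragment length was also the shortest, 174.8 bases against 189.3 and 189.1, while the PKO-1 libraries had 199.0, 178.6 and 185.3. Counts of calls in a gene list that moved by more than 1.5 times without it are given with that value. Of 9 fibroblast markers, the summed level was 3764 to 3866 TPM (the authors' unit scaled for transcript length and depth) in rho0 and 6792 to 6955 in PKO-1, but *Thy1*, a surface marker of many fibroblasts, reached at most 0.0200 TPM in either line. *Col1a1*, *S100a4*, *Col3a1* and *Pdgfra* of these markers were called higher. *S100a4* made up most of the difference in the sum, at 568 to 598 TPM in rho0 and 2546 to 2739 in PKO-1. The 5 epithelial markers summed to 10.2 to 11.7 TPM in rho0 and 19.2 to 20.1 in PKO-1, with *Krt18* the called one of them that rose and *Epcam* the one that fell, and *Krt14* was at 0 in PKO-1. The 5 neuronal and glial markers summed to 18.9 to 19.5 and 31.2 to 34.1 TPM, of which *Map2* made up 9.67 to 11.7 and 21.6 to 24.2, while *Rbfox3* was at 0 in rho0. The 4 endothelial markers summed to at most 0.340 TPM, 3 skeletal muscle markers to at most 0.560 and 4 haematopoietic markers to at most 4.47 in any of the 6 libraries. *Myod1*, *Myog* and *Adgre1* were at 0 in both lines, and *Ptprc* and *Lyz2* were at 0 in rho0.

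Of 14026 genes tested, 4590 were called different, that is with an adjusted p below 0.01 and a log2 fold change beyond 0.5 in either direction. This is 32.7% of the genes tested: 2117 (15.1%) were higher and 2473 (17.6%) lower in PKO-1. The libraries of the groups did not overlap for 9749 genes, 69.5% of those tested, and for 4542 of the called genes. Large differences were more often toward lower values in PKO-1: 285 called genes were over 4-fold higher than in rho0 and 546 over 4-fold lower. Because calls were this frequent, each group of genes below is read against 15.1% higher and 17.6% lower, and the median log2 fold change over all tested genes was 0.00.

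**Figure D2:**
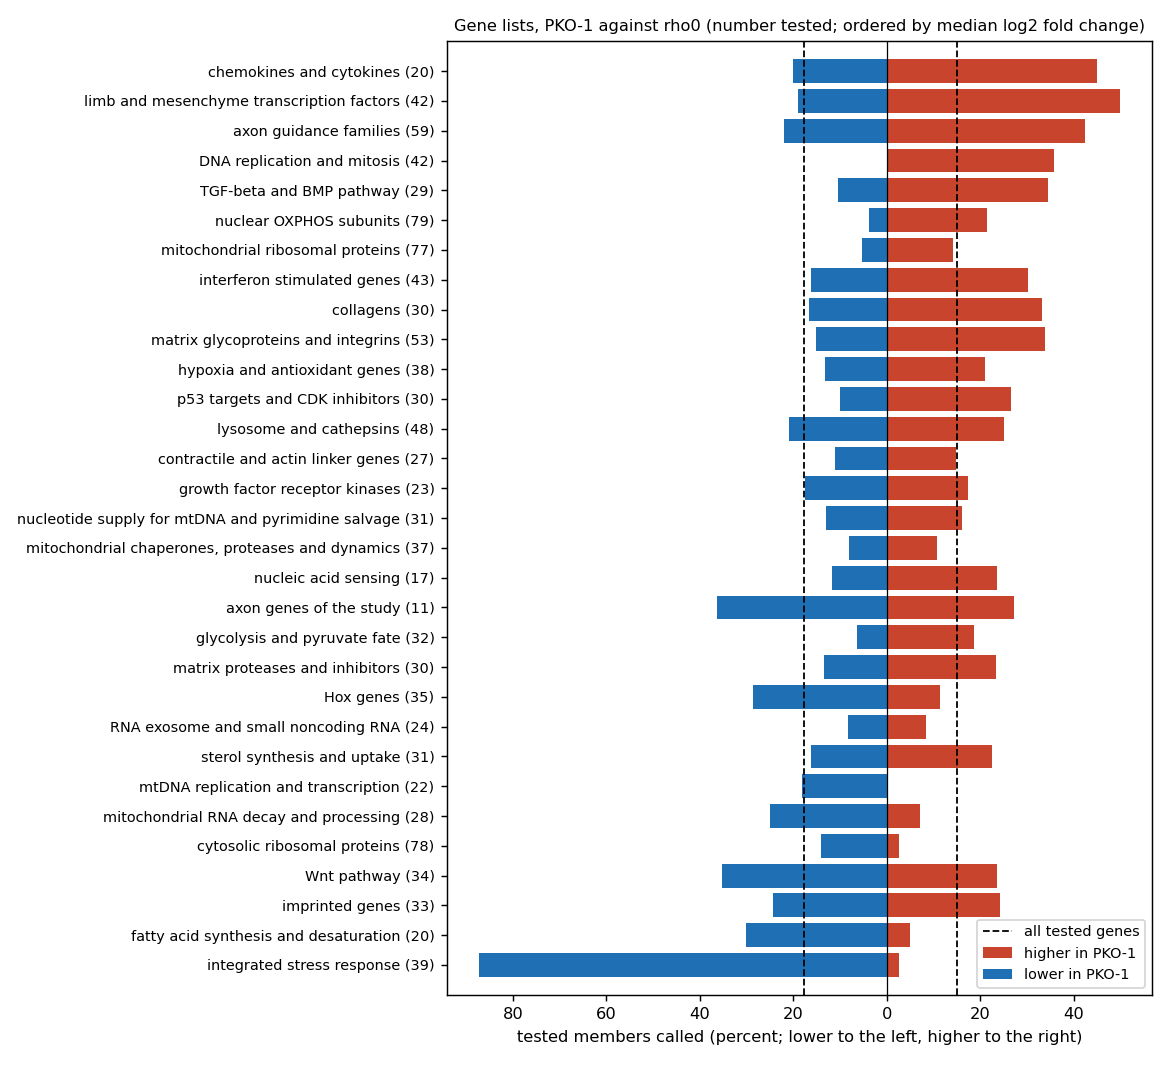
Share of the tested members of each gene list that was called higher (red, right) or lower (blue, left) in PKO-1, in percent, with the number tested in brackets and dashed lines at the shares of all tested genes (15.1% higher, 17.6% lower). Lists are ordered by their median log2 fold change, from chemokines and cytokines (0.75, but 0.09 with no filter on low counts) at the top to the integrated stress response (-1.01) at the bottom.

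The integrated stress response was the group that stood lowest in PKO-1. Of 40 listed genes 39 were tested, 34 were lower, 1 was higher and 4 were not called, against 17.6% lower and 15.1% higher over all genes, and the median log2 fold change was -1.01. *Atf4*, the transcription factor at the centre of the response, had 33964, 28647 and 30197 normalized counts in rho0 and 16674, 16723 and 15202 in PKO-1. The groups were far apart, with a log2 fold change of -0.93 (SE 0.0674; edgeR adjusted p = 4.96e-08). *Ddit3* (CHOP), a stress-induced factor downstream of ATF4, had 5041, 4386 and 4375 in rho0 and 1184, 1093 and 1062 in PKO-1. It fell by 2.05 on the log2 scale (SE 0.0816; adjusted p = 1.47e-10). *Trib3*, a pseudokinase induced by ATF4 and CHOP, was the largest fall of the list, from 14170, 11747 and 11929 to 2732, 2708 and 2509 (log2 fold change -2.25, SE 0.0867, adjusted p = 1.08e-10). *Atf3*, a further stress-induced transcription factor, went from 2173, 2055 and 2028 to 475, 486 and 397 (log2 fold change -2.21, SE 0.0872, adjusted p = 1.37e-10).

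The fall covered the enzymes and transporters of the response as well as its regulators. *Pycr1*, which makes proline in mitochondria, had 1663, 1457 and 1480 normalized counts in rho0 and 338, 377 and 299 in PKO-1 (log2 fold change -2.18, SE 0.101). *Aldh1l2*, a mitochondrial folate enzyme, averaged 47794 ± 1059 in rho0 and 11301 ± 358 in PKO-1 (SD, n = 3 each), a log2 fold change of -2.08 (SE 0.0541). Other one-carbon and serine enzymes differed less, with *Mthfd2* at -1.03, *Mthfd1l* at -1.27, *Shmt2* at -0.96, *Psph* at -1.01 and *Phgdh* at -0.74, all called lower. *Cth*, which makes cysteine by transsulfuration, fell from 11772 ± 865 to 3133 ± 328 (SD, n = 3 each; log2 fold change -1.91). *Asns*, asparagine synthetase, had 22111, 18747 and 19624 in rho0 and 8963, 9361 and 8794 in PKO-1 (log2 fold change -1.16, SE 0.0627, adjusted p = 2.81e-09). The tRNA synthetases *Wars*, *Gars*, *Nars*, *Sars* and *Aars* were lower, with log2 fold changes of -1.45, -1.02, -0.97, -0.82 and -0.63. Of the amino acid carriers, *Slc1a5*, *Slc7a5*, *Slc3a2*, *Slc7a1* and *Slc1a4* had log2 fold changes of -1.21, -0.74, -0.74, -0.70 and -0.69.

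The exceptions were few. *Slc7a3*, a cationic amino acid transporter, rose from 345, 330 and 294 to 900, 906 and 917 normalized counts (log2 fold change 1.49, SE 0.128, adjusted p = 2.73e-07). *Atf5*, *Slc7a11*, *Psat1* and *Fgf21* were not called, with log2 differences of -0.31, -0.31, -0.13 and -0.22. *Fgf21*, which encodes a hormone secreted under mitochondrial stress, was near the limit of detection in both lines, at 10.2 ± 1.21 and 8.94 ± 4.51 normalized counts (SD, n = 3 each). *Gdf15*, a further secreted stress factor, had 1024, 1024 and 1001 in rho0 and 286, 308 and 264 in PKO-1 (log2 fold change -1.83, SE 0.0971, adjusted p = 2.30e-09). Thus of these secreted factors *Gdf15* differed with no overlap of libraries, and *Fgf21* could not be told apart at this depth.

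**Figure D3:**
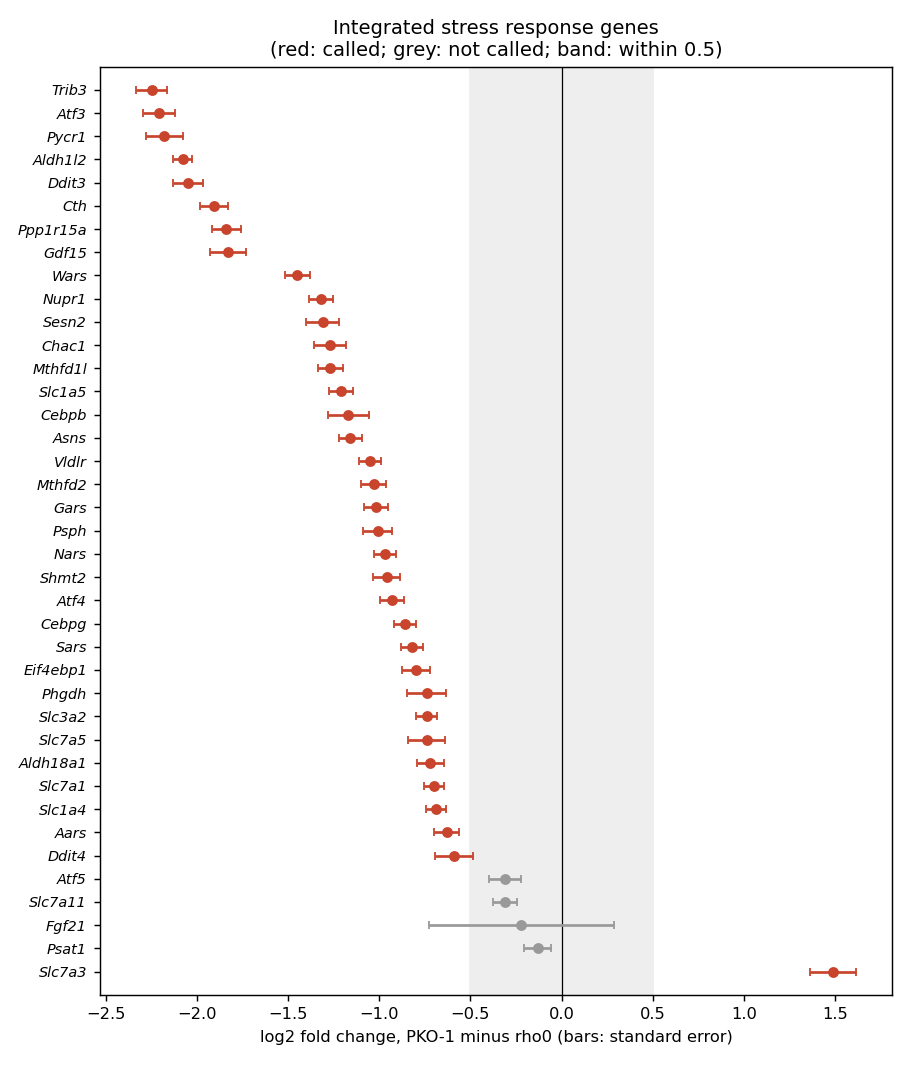
Log2 fold change of PKO-1 over rho0 (x axis; bars show the standard error) for the 39 tested genes of the integrated stress response, with called genes in red and the others in grey, and a band from -0.5 to 0.5. The 34 lower genes run from *Trib3* (-2.25) to *Ddit4* (-0.59), and *Slc7a3* (1.49) is the single higher one.

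The other lines place these levels. In rho0 against TM6, 35 of the 39 genes were called higher and 0 lower (20.7% of all tested genes were called higher in that comparison). In PKO-1 against TM6, 18 were higher and 1 lower (16.4% of all genes were higher). In PKO-6 against rho0, 7 were lower and 1 higher (8.16% of all genes were lower). In PKO-1 against PKO-6, 28 were lower (17.6% of all genes were lower, and 29.1% were called in either direction). These comparisons share libraries with that of PKO-1 and rho0 and are given side by side only. *Trib3* averaged 926 normalized counts in TM6, 2650 in PKO-1, 10208 in PKO-6 and 12615 in rho0, so PKO-1 lay nearer to TM6. *Atf4* averaged 15274 in TM6, 16200 in PKO-1, 34569 in PKO-6 and 30936 in rho0, and *Ddit3* averaged 1016, 1113, 4575 and 4600 in the same order. *Gdf15* averaged 61.6, 286, 627 and 1016, which puts PKO-1 between TM6 and PKO-6.

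The promoters of these genes were searched for TGATGCAA, a C/EBP-ATF response element bound by ATF4, on both strands (its reverse complement is TTGCATCA). RefSeq promoters (GRCm38.p6) were used, from 250 bases before to 50 bases after each start, and 32 of the 40 listed genes matched a promoter by symbol. The motif was in 9 of the 32 (28.1%), against 279 of 27025 genes with a promoter (1.03%). It was in 0.745% of the 10600 tested genes that matched. Of the 9 genes, *Aars*, *Atf3*, *Chac1*, *Nupr1*, *Pycr1*, *Slc1a4* and *Vldlr* were lower in PKO-1, and *Fgf21* and *Slc7a11* were not called. A match is a description of the sequence and not a bound site. The list was compiled by hand from genes of a response that ATF4 drives. A raised share of an ATF4 element was therefore built into the choice of list and is not independent evidence. Promoters of 3 genes are shown as examples, picked among those called lower. The motif is in capitals, 5′ to 3′ on the strand of the gene.
Atf3, chr1:191183284-191183583, minus strand: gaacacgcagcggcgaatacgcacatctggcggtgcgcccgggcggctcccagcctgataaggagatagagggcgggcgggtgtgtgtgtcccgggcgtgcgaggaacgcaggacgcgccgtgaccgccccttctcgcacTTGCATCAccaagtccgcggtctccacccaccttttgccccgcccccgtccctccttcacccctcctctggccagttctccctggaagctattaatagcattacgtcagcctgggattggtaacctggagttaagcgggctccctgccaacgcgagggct
Chac1, chr2:119350992-119351291, plus strand: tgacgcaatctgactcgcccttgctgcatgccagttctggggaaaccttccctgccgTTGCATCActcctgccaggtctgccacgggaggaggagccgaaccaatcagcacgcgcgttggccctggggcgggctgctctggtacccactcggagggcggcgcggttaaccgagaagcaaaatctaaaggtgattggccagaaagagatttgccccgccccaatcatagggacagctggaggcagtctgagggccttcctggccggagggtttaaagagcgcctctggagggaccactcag
Pycr1, chr11:120643699-120643998, minus strand: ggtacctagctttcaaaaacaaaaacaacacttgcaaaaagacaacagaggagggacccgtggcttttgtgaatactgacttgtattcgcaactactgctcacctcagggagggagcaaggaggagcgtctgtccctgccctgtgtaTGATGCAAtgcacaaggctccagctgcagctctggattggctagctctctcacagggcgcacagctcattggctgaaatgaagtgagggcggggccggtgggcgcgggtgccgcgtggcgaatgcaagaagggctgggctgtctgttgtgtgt

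The motif starts 110 bases before the start site of *Atf3*, 193 before that of *Chac1* and 103 before that of *Pycr1*. *Pycr1* carries it in the forward direction, and *Atf3* and *Chac1* in the reverse. *Chac1*, which degrades glutathione and is an established ATF4 target, averaged 4212 ± 92.0 normalized counts in rho0 and 1750 ± 119 in PKO-1 (SD, n = 3 each), a log2 fold change of -1.27 (SE 0.0880).

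Genes of mitochondrial RNA and DNA metabolism differed less than the stress response. Of 28 genes of mitochondrial RNA decay and processing, all tested, 7 were lower and 2 higher, with a median log2 fold change of -0.13, and *Pnpt1* is among the 7. As a group they were called no more often than all genes. *Nsun4*, an rRNA methyltransferase, had 1190, 1166 and 1228 normalized counts in rho0 and 571, 563 and 568 in PKO-1 (log2 fold change -1.07, SE 0.0796, adjusted p = 6.46e-08). *Rexo2*, the oligoribonuclease that removes the short RNAs left by PNPase and SUV3, fell from 4099 ± 204 to 2543 ± 52.2 (SD, n = 3 each; log2 fold change -0.69, SE 0.0555). *Endog* and *Mrm1* were lower at -0.72 and -0.69. *Fastkd5* and *Slirp*, which act in the maturation and stability of mitochondrial mRNA, were higher, at 0.57 (SE 0.0725) and 0.56 (SE 0.0924). Without rho0 replicate 2 *Slirp* was no longer called, at 0.46. *Lrpprc*, the partner of SLIRP, was not called, at -0.13.

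Of 22 genes of mtDNA replication and transcription, 4 were lower and 0 higher (median -0.13). The share called lower was close to that of all tested genes (17.6%). *Mterf3* (-0.84, SE 0.0573), *Primpol* (-0.80, SE 0.0796), *Exog* (-0.71, SE 0.0873) and *Top1mt* (-0.54, SE 0.0639) were lower, and *Mterf3* and *Exog* lie on chromosomes 13 and 9, where most genes were lower (below). After each chromosome's median was removed 2 of the 4 remained past the threshold. The core factors were not called: *Polg*, the DNA polymerase, at -0.16 (SE 0.0620), *Tfam*, which packages mtDNA, at 0.23 (SE 0.0611), *Polrmt*, the RNA polymerase, at 0.03 (SE 0.0796), and *Peo1*, the helicase Twinkle, at -0.29 (SE 0.0535). *Tfam* averaged 3081 ± 196 normalized counts in rho0, 3621 ± 271 in PKO-1 and 3166 in TM6, so RNA for these factors was present in both lines (SD, n = 3 each). *Rnaseh1*, which removes RNA primers, was at 885 ± 43.9 and 798 ± 20.9 (log2 difference -0.15, SE 0.0661).

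Nucleotide supply genes were called in both directions, and as a group no more often than all genes. Among 31 tested genes of this group 5 were higher and 4 lower (median 0.09). Of the S-phase enzymes *Rrm1*, *Tyms* and *Dut* were not called, at 0.42, 0.11 and -0.07, while *Tk1* and *Rrm2* rose. *Tk1*, cytosolic thymidine kinase, had 3229, 2808 and 2792 normalized counts in rho0 and 6368, 6905 and 6460 in PKO-1 (log2 fold change 1.16, SE 0.0810, adjusted p = 3.61e-08), and *Rrm2*, the S-phase subunit of ribonucleotide reductase, had 5827, 5249 and 5493 against 11696, 11460 and 11054 (1.05, SE 0.0587). By contrast *Rrm2b*, the subunit used outside S phase and required for mtDNA, had 1818, 1888 and 1934 in rho0 and 1318, 1202 and 1098 in PKO-1. It fell by 0.64 on the log2 scale (SE 0.106; adjusted p = 1.29e-04). *Slc25a33* and *Slc25a36*, mitochondrial pyrimidine carriers, fell by 1.09 (SE 0.0796) and 0.66 (SE 0.0898), and *Upp1*, uridine phosphorylase, fell by 0.70 (SE 0.143). *Dhodh*, the pyrimidine enzyme tied to the respiratory chain, was not called, at 908 ± 45.1 and 967 ± 61.2 (SD, n = 3 each). *Slc25a36* lies on chromosome 9 and its value was -0.22 once that chromosome's median was removed, no longer called.

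Nuclear genes for the oxidative phosphorylation (OXPHOS) complexes leaned upward: 17 of 79 tested were higher and 3 lower, with 58 values above 0 and a median log2 fold change of 0.25. *Uqcrh*, a complex III subunit, had 1852, 1499 and 1540 normalized counts in rho0 and 4625, 4868 and 4295 in PKO-1 (log2 fold change 1.49, SE 0.0841, adjusted p = 4.10e-09). *Atp5k* of the ATP synthase (1.47, SE 0.108) and *Ndufb10* of complex I (1.10, SE 0.0789) followed. In the other direction *Cox6a2*, the heart and muscle form of a cytochrome c oxidase subunit, fell from 735, 540 and 521 to 41.7, 80.9 and 61.0 (log2 fold change -3.28, SE 0.201, adjusted p = 9.53e-09). TM6 averaged 2.18 and PKO-6 averaged 970 normalized counts of *Cox6a2*, so among the 4 lines its level followed no order of *Pnpt1* genotype. Without rho0 replicate 1 the OXPHOS count was 26 higher and 2 lower, and without rho0 replicate 2 it was 13 higher and 5 lower. Most of these genes are short: the longest transcript was at most 1000 bases for 52 of the 79, and of all 1044 tested genes of that length 20.1% were higher and 11.2% lower, with a median of 0.12. The part of transcript or fragment length in this group was not tested.

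The 77 mitochondrial ribosomal protein genes showed 11 higher, 4 lower and a median of 0.22. Without rho0 replicate 1 these counts were 17 and 4. *Mrps21* (1.06, SE 0.0993), *Mrpl33* (0.99, SE 0.0741) and *Mrpl34* (0.98, SE 0.138) were among the higher ones, while *Mrpl32* (-0.67, SE 0.0999), *Mrpl4* (-0.62, SE 0.0943) and *Mrpl48* (-0.60, SE 0.0884) were lower. For the 78 cytosolic ribosomal protein genes the counts were 2 higher and 11 lower (median -0.13). *Rpsa*, at -1.01 (SE 0.0776), *Rpl4*, at -0.91 (SE 0.0705), and *Rps23*, at -0.88 (SE 0.0757), led the lower ones and lie on chromosomes 9, 9 and 13. Without rho0 replicate 1, 4 of the 78 were higher and 6 lower (median -0.07), and after chromosome medians were removed 2 were higher and 5 lower.

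Among 37 genes of mitochondrial chaperones, proteases and dynamics 4 were higher and 3 lower, less often than all genes in both directions. *Lonp1*, the matrix protease, fell from 38218, 33309 and 34979 to 12860, 12561 and 12049 normalized counts (log2 fold change -1.51, SE 0.0600, adjusted p = 1.46e-10). *Hspa9*, the mitochondrial HSP70, fell by 0.90 (SE 0.0704) and *Pink1*, the kinase that marks damaged mitochondria, by 0.53 (SE 0.0959). *Pink1* was no longer called without rho0 replicate 1, at -0.46. *Fundc1* (0.97, SE 0.0749) and *Fis1* (0.63, SE 0.116), which act in mitophagy and fission, and *Gabpa*, a factor that drives OXPHOS genes (0.54, SE 0.0860), were higher. *Gabpa* overlaps *Atp5j*, a called higher OXPHOS gene, on the other strand, and its call was lost when fold changes were tested for exceeding 0.5.

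Of 42 genes of DNA replication and mitosis, all tested, 15 were higher and 0 lower, against 15.1% and 17.6% over all genes, and 34 values were above 0 (median 0.32). The called genes were mainly mitotic. *Plk1*, a mitotic kinase, had 2873, 2407 and 2544 normalized counts in rho0 and 5269, 5329 and 5176 in PKO-1 (log2 fold change 1.01, SE 0.0690, adjusted p = 2.91e-08). *Cenpa*, the centromeric histone, had 3307, 2762 and 2881 against 5946, 6324 and 6126 (1.04, SE 0.0802). *Ccna2*, cyclin A2, went from 9645, 8876 and 9476 to 19317, 18975 and 18047 (1.01, SE 0.0675). *Kif11*, *Cenpe*, *Top2a* and *Mki67* rose by 0.98, 0.97, 0.83 and 0.76 on the log2 scale. In contrast the replication licensing genes *Mcm2*, *Mcm3*, *Mcm5*, *Mcm6* and *Cdt1* were not called, with log2 differences of -0.29, 0.07, -0.03, 0.00 and -0.18, and *E2f1* was at -0.49. A single gene was lower by DESeq2, with DESeq2 size factors, with no filter on low counts, in a fit of the 6 libraries alone, without *Rn45s*, and without rho0 replicate 2 or replicate 3. Of the 42 genes, 17 were higher in PKO-1 than in PKO-6 (11.5% of all genes were higher in that contrast). The PKO-1 levels of *Plk1* and *Ccna2* were close to those of TM6, which averaged 5847 and 18989. In bulk RNA a larger share of dividing cells and more RNA per dividing cell cannot be told apart. The study's own means did not put PKO-1 above rho0 in the share of cells in S phase or in the rate of biomass growth. It reports no test between these lines for either measure.

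Of 30 genes listed as p53 targets and CDK inhibitors 8 were higher and 3 lower (median 0.16). The list also holds *Ccnd1* (0.76, SE 0.0636), *Ccnd3* (0.69, SE 0.104) and *Cdk6* (0.61, SE 0.0584), which drive the cycle and are among the 8. *Gadd45a*, a growth arrest gene induced by p53 and by ATF4, had 4438, 4363 and 4335 normalized counts in rho0 and 643, 615 and 570 in PKO-1 (log2 fold change -2.85, SE 0.0792, adjusted p = 7.41e-12), and TM6 averaged 354. *Cdkn2c* (1.29, SE 0.0692), *Ccng1* (1.23, SE 0.0871) and *Cdkn1b* (0.89, SE 0.0580) were higher, while *Perp* fell by 1.11 (SE 0.0736). *Cdkn1a* (p21), the main p53-induced inhibitor, was not called, at 4159 ± 337 in rho0 and 4431 ± 85.8 in PKO-1 (SD, n = 3 each), while TM6 averaged 940.

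Energy and lipid metabolism showed small groups of changes. Among 32 glycolysis genes 6 were higher and 2 lower (median 0.02). *Slc16a3*, the lactate exporter MCT4, had 606, 510 and 490 normalized counts in rho0 and 1642, 1591 and 1548 in PKO-1 (log2 fold change 1.57, SE 0.0864, adjusted p = 3.24e-09). *Pdk2*, which inhibits pyruvate dehydrogenase, rose by 1.03 (SE 0.116) and *Pgam1* by 0.59 (SE 0.0848), while *Pfkp* fell by 0.51 (SE 0.0523) and was no longer called without rho0 replicate 1 or PKO-1 replicate 3, at -0.48 in both. *Ldha*, lactate dehydrogenase, and *Slc2a1*, the glucose carrier GLUT1, were not called, at 0.06 (SE 0.0833) and -0.36 (SE 0.0709). Without rho0 replicate 1 or PKO-1 replicate 3, 6 of the 32 were higher and 0 lower. Glycolysis as a group was thus called no more often than all genes.

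Of 31 sterol genes 7 were higher and 5 lower (median -0.09), a group in which both mtDNA-less lines lay far below TM6: 26 were lower in rho0 (21.4% of all genes) and 27 in PKO-1 (17.9% of all genes), comparisons that share the TM6 libraries. *Srebf2*, the transcription factor that drives sterol synthesis, fell by 0.62 (SE 0.104) and its escort *Scap* by 0.66 (SE 0.0867). *Hmgcs1*, HMG-CoA synthase, was not called, at 3548 ± 23.3 in rho0 and 3342 ± 223 in PKO-1 against 18420 in TM6 (SD, n = 3 each). The higher members were *Insig2* (0.84), *Hsd17b7* (0.75), *Ebp* (0.64), *Mvk* (0.56), *Acat2* (0.56), *Mvd* (0.55) and *Abca1* (1.24). Without rho0 replicate 2 only 4 were higher, and without PKO-1 replicate 1 or replicate 2 only 3 were lower. Fatty acid synthesis and desaturation had 6 of 20 genes lower and 1 higher (median -0.42). *Fads3* (-1.65, SE 0.0671) and *Scd2* (-1.03, SE 0.0705), both desaturase genes, fell furthest in that list.

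Oxygen and redox genes were called in both directions, about as often as all genes. Of 38 hypoxia and antioxidant genes 8 were higher and 5 lower (median 0.20). *Ndrg1*, induced by hypoxia and stress, fell from 6825, 5968 and 6117 to 1314, 1288 and 1147 normalized counts (log2 fold change -2.34, SE 0.0714, adjusted p = 1.63e-11). *Hmox1*, heme oxygenase, fell by 1.81 (SE 0.0614), and *Nqo1*, a quinone reductase that is, like *Hmox1*, a target of NRF2, rose from 828, 675 and 674 to 3778, 3415 and 4098 (2.37, SE 0.100, adjusted p = 2.57e-10). These 2 NRF2 targets therefore moved in opposite directions with no overlap of libraries. Without rho0 replicate 2 the higher count was 5, and with chromosome medians removed the lower count was 2.

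Interferon stimulated genes went both ways. Of 43 tested, 13 were higher and 7 lower (median 0.20). *Ifit1*, which binds viral RNA, had 91.0, 97.5 and 102 normalized counts in rho0 and 337, 306 and 250 in PKO-1 (log2 fold change 1.62, SE 0.123, adjusted p = 8.13e-08). *Ifit3* rose by 1.73 (SE 0.153), and *Ccl5*, a chemokine, by 1.95 (SE 0.181). *Ifih1* (MDA5) and *Ddx58* (RIG-I), the sensors of double-stranded RNA in the cytosol, rose by 0.71 (SE 0.0922) and 0.69 (SE 0.0601). Lower members included genes of antigen presentation: *Tap1*, the peptide transporter, had 541, 462 and 440 in rho0 and 80.9, 88.4 and 85.8 in PKO-1 (-2.50, SE 0.110, adjusted p = 3.89e-10), and *Psmb8* and *Psmb9* of the immunoproteasome were at 13.9 and 23.1 normalized counts in rho0 and 0.397 and 0.689 in PKO-1. *Isg15* (-0.43, SE 0.160), a ubiquitin-like protein, was not called. For each of these 5 higher genes the TM6 mean lay above both lines, for example 643 for *Ifit1* and 1143 for *Ddx58*. Within 17 tested genes of nucleic acid sensing 4 were higher and 2 lower. *Ifi204* fell by 1.54 (SE 0.127), and *Mb21d1* (cGAS), the DNA sensor, by 0.51 (SE 0.0937), a call lost on removing PKO-1 replicate 3, rho0 replicate 2 or rho0 replicate 3 (-0.48, -0.45 and -0.48).

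Of 20 tested chemokine and cytokine genes 9 were higher and 4 lower. The median log2 fold change was 0.75 over the tested genes and 0.09 with no filter on low counts, with the same counts of calls. *Cxcl1* went from 17.1 ± 3.26 to 150 ± 24.5 normalized counts (SD, n = 3 each; log2 fold change 3.13, SE 0.339), and *Ccl2*, which attracts monocytes, from 13.6 ± 3.38 to 84.2 ± 5.25 (2.61, SE 0.227). *Kitl*, the ligand of KIT, rose by 1.00 (SE 0.0783) and *Figf* (VEGF-D) by 2.10 (SE 0.108). *Vegfa* fell from 8471, 9455 and 9237 to 4806, 4880 and 5207 (-0.87, SE 0.0812). *Cxcl12*, the ligand of CXCR4, was at 152 ± 3.33 in rho0 and 2.59 ± 0.850 in PKO-1, and TM6 averaged 19050, so both lines lay far below the parent line.

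Among genes that averaged 100 or more normalized counts over the 6 libraries, the 12 furthest below rho0 were *Xist*, *Arap2*, *Eid2*, *Pcdh7*, *Fbn2*, *Dthd1*, *Agbl2*, *Dcp1b*, *H2-Q7*, *Zdhhc15*, *Ctsk* and *C130021I20Rik*. *Xist*, the RNA that coats the inactive X chromosome, had 47051, 109328 and 97787 normalized counts in rho0 and 53.6, 16 and 22.8 in PKO-1 (log2 fold change -11.46, SE 0.477, adjusted p = 2.27e-10). TM6 averaged 35537 and PKO-6 averaged 78386 of *Xist*, so PKO-1 was the line without it. Within rho0, replicate 1 had the lowest value. *Xist* overlaps *Tsix* on the other strand, and whether counting used the strand is not given in the sources used here. Over the 459 tested genes of the X chromosome the median log2 fold change was 0.04, so the X chromosome as a whole did not stand apart between the lines. Against TM6 its median was -0.74 in PKO-1 and -0.75 in rho0.

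*Arap2*, a GTPase-activating protein, had 1941, 2240 and 2307 normalized counts in rho0 and 2.38, 0 and 0 in PKO-1. *Eid2*, a small nuclear protein, had 225, 212 and 211 in rho0 and 0 in every PKO-1 library, at least 65.6-fold lower if 3 counts per library are taken as the limit of detection. *Pcdh7*, a protocadherin, had 211, 223 and 211 and again 0 throughout PKO-1, at least 65.3-fold lower. Unlike *Eid2*, which averaged 163 in PKO-6, *Pcdh7* was also close to 0 in PKO-6, at 0.273. *Ctsk*, the collagen-degrading protease cathepsin K, had 1342, 1115 and 1279 in rho0 and 15.5, 12.8 and 10.3 in PKO-1 (log2 fold change -6.59, SE 0.220), and 10.5 on average in PKO-6. *H2-Q7*, a class Ib histocompatibility gene, had 292, 301 and 279 against 3.57, 0 and 1.03, but it belongs to a family of near-identical genes between which reads can be split. *Dcp1b* overlaps *Cacna1c* on the other strand. In all, 15 genes that averaged 100 or more normalized counts in rho0 had at most 3 counts in every PKO-1 library, and 7 genes showed the reverse.

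Among the genes furthest above rho0 were *Rhox5*, *Ttbk1*, *Gas6*, *Lrrc32*, *Slc14a1*, *Pdgfra*, *Nrn1*, *Chst10*, *Hopx*, *Slit3* and *Hspb8*. *Pdgfra*, the PDGF receptor that marks mesenchymal cells, had 81.4, 94.2 and 69.2 normalized counts in rho0 and 3214, 3295 and 3167 in PKO-1. It was 39.5-fold higher (log2 fold change 5.30, SE 0.0970, adjusted p = 2.65e-13), and TM6 averaged 342. *Slc14a1*, the urea transporter, had 216, 126 and 145 against 7134, 7015 and 7459 (5.46, SE 0.159), above the 39.7 of TM6 and the 24.1 of PKO-6. *Nrn1*, neuritin, went from 340, 255 and 312 to 9972, 9432 and 9977 (5.01, SE 0.112). *Slit3*, a secreted guidance factor, had 152, 135 and 121 in rho0 and 2750, 3015 and 2968 in PKO-1 (4.42, SE 0.0996). *Rhox5*, an X-linked homeobox gene of the germ line and placenta that has related copies, had 2.91, 4.43 and 0 in rho0 and 494, 463 and 472 in PKO-1. *Gas6*, the ligand of the TAM receptors, had 1.94, 7.76 and 3.35 against 357, 302 and 328, while TM6 averaged 837.

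**Figure D4:**
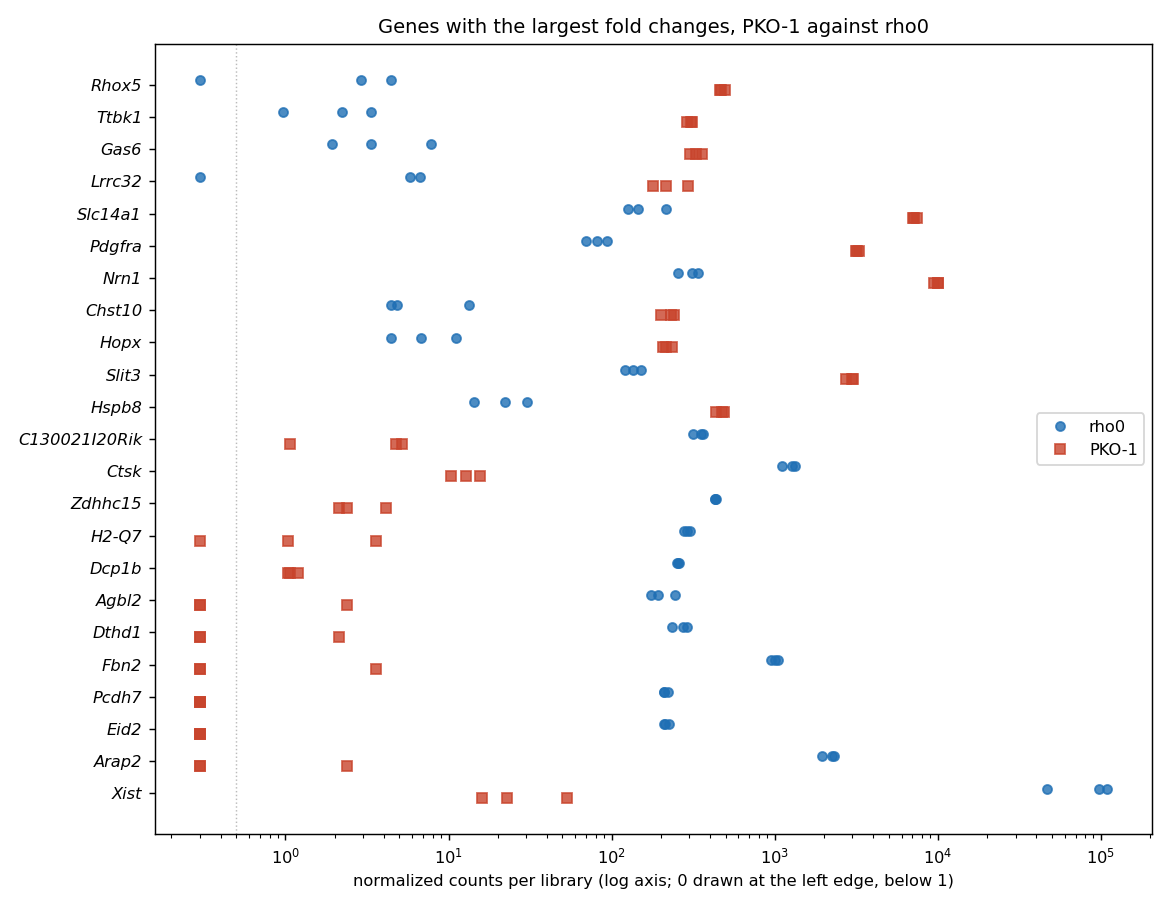
Normalized counts per library (log axis; values of 0 are drawn left of the dotted line) of the named genes with the largest log2 fold changes among well measured genes, higher ones above and lower ones below, with rho0 as blue circles and PKO-1 as red squares. The groups do not overlap for any gene shown, which the choice of genes required, and *Eid2* and *Pcdh7* were at 0 in all 3 PKO-1 libraries.

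Of the extracellular matrix genes, collagens and the list of glycoproteins and integrins were called higher more often than all genes. Of 30 tested collagen genes 10 were higher and 5 lower (median 0.20). *Col3a1*, a fibrillar collagen of soft tissue, had 535, 459 and 434 normalized counts in rho0 and 6539, 6597 and 7897 in PKO-1 (log2 fold change 3.88, SE 0.137, adjusted p = 5.23e-11). The 3 chains of collagen VI rose together, *Col6a3* by 3.06 (SE 0.0754), *Col6a1* by 1.71 (SE 0.0760) and *Col6a2* by 1.38 (SE 0.0720). *Col11a1* rose by 2.55 (SE 0.0789) and *Col1a1* by 0.67 (SE 0.130). On the other side *Col4a6*, a basement membrane chain, had 509, 473 and 480 in rho0 and 3.57, 8.52 and 7.24 in PKO-1 (-6.19, SE 0.172), and *Col5a3* fell by 5.02 (SE 0.241). Without rho0 replicate 1, 10 collagens were higher and 8 lower.

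Of 53 tested matrix glycoproteins and integrins 18 were higher and 8 lower (median 0.20). *Spp1*, osteopontin, had 5478, 4755 and 4944 normalized counts in rho0 and 63174, 57861 and 65732 in PKO-1, 12.3-fold higher (log2 fold change 3.62, SE 0.0818, adjusted p = 1.27e-12). *Thbs1*, thrombospondin 1, rose by 2.23 (SE 0.0719). *Lama2*, a laminin chain, fell from 1549, 1771 and 1741 to 97.6, 115 and 86.9 (-4.08, SE 0.0947), and *Bgn*, the proteoglycan biglycan, from 4300, 3522 and 3889 to 258, 274 and 279 (-3.85, SE 0.0827). *Fbn2*, fibrillin 2, had 951, 1044 and 1009 in rho0 and 3.57, 0 and 0 in PKO-1. Among 30 matrix proteases and inhibitors 7 were higher and 4 lower, about as often as all genes. *Mmp19* fell by 1.83 (SE 0.0631), while *Timp1* and *Timp2*, inhibitors of such proteases, rose by 1.39 (SE 0.0925) and 0.71 (SE 0.0743). Contractile and actin linker genes had 4 of 27 higher and 3 lower, no more often than all genes. *Acta2*, smooth muscle actin, fell by 0.61 (SE 0.111), and TM6 averaged 11554 normalized counts of it against 737 in rho0.

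Signalling families moved in both directions. Of 59 tested genes of the axon guidance families 25 were higher and 13 lower (median 0.48, or 0.31 with no filter on low counts). The neuropilins, receptors for class 3 semaphorins and VEGF, both rose: *Nrp1* had 1383, 1331 and 1246 normalized counts in rho0 and 5235, 5017 and 4962 in PKO-1 (log2 fold change 1.94, SE 0.0688, adjusted p = 5.35e-11), and *Nrp2* averaged 7048 ± 232 and 16604 ± 126 (1.24, SE 0.0514; SD, n = 3 each). *Sema4d* rose by 2.06 (SE 0.111), *Plxna2* by 1.74 (SE 0.104) and *Unc5c* by 1.62 (SE 0.0634). *Sema4f* went from 663, 612 and 615 to 10.7, 7.46 and 20.7 (-5.58, SE 0.208), and *Robo1*, a receptor of the Slit ligands, fell by 1.06 (SE 0.0555), while *Slit2* rose by 0.81 (SE 0.0533). Of 11 axon genes that the study itself picked from these libraries, 3 were higher and 4 lower, a list that is not independent evidence of its direction. *Fgfr2* (-2.12, SE 0.0825) and *Wnt5a* (-2.02, SE 0.104) were the lowest of it.

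Of 34 tested Wnt pathway genes 8 were higher and 12 lower (median -0.19). *Wnt9a*, a ligand, fell from 2435, 2083 and 2210 to 423, 449 and 430 (log2 fold change -2.37, SE 0.0828), and its TM6 mean was 154. *Fzd6*, a receptor, fell by 1.05 (SE 0.0636) and *Fzd5* rose by 1.28 (SE 0.0726). *Dkk2*, a secreted inhibitor, rose by 2.37 (SE 0.206) and *Rspo2*, which strengthens Wnt signals, by 1.37 (SE 0.103). The TGF-beta and BMP pathway had 10 of 29 higher and 3 lower (median 0.31). *Tgfbr3*, the co-receptor betaglycan, had 2881, 2560 and 2731 in rho0 and 10458, 10971 and 10480 in PKO-1 (1.96, SE 0.0580), and *Id2*, a BMP-induced inhibitor of bHLH factors, rose by 2.00 (SE 0.0809). Among 23 growth factor receptor kinases 4 were higher and 4 lower. *Egfr* fell from 620, 627 and 611 to 170, 193 and 165 (-1.81, SE 0.0912), and *Met* rose by 0.80 (SE 0.0632). *Myc*, a growth factor responsive gene, fell by 0.51 (SE 0.0551), at the threshold: it was not called without PKO-1 replicate 3 or rho0 replicate 3, at -0.48 and -0.49.

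Genes that carry positional and lineage identity also differed. Of 35 tested Hox genes 4 were higher and 10 lower (median 0.00). Of the lower members 4 were Hoxd genes: *Hoxd8* had 386, 377 and 373 normalized counts in rho0 and 23.8, 13.8 and 20.7 in PKO-1 (log2 fold change -4.28, SE 0.142, adjusted p = 3.30e-11), and *Hoxd3*, *Hoxd4* and *Hoxd9* were at -4.61, -5.37 and -3.58. Further lower members were *Hoxb3*, *Hoxb5*, *Hoxb6*, *Hoxb9*, *Hoxa2* and *Hoxc8*. In the other direction *Hoxa10* had 1668, 1528 and 1562 against 4040, 3806 and 3891 (1.30, SE 0.0491), and *Hoxa11*, *Hoxc6* and *Hoxa5* rose by 1.29, 1.00 and 0.79. Limb and mesenchyme transcription factors were often higher: 21 of 42 rose and 8 fell. Their median was 0.72, against 0.41 with no filter on low counts and 0.47 without rho0 replicate 3, where 20 rose and 8 fell. *Nr2f2* rose by 1.53 (SE 0.0448), *Tbx3* by 1.24 (SE 0.0546), *Shox2* by 1.12 (SE 0.0673), *Tbx5* by 1.09 (SE 0.0499) and *Prrx1*, which marks limb mesenchyme, by 0.87 (SE 0.0643). *Foxf2* had 14.5, 12.2 and 12.3 in rho0 and 243, 272 and 240 in PKO-1 (4.25, SE 0.181). *Alx4* was at 24.7 ± 6.59 in rho0 and 0 in PKO-1, and *Lmx1b*, which sets dorsal limb identity, went from 114 ± 20.9 to 1.94 ± 2.50 (SD, n = 3 each).

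Imprinted genes, expressed from the allele of 1 parent, had 8 of 33 tested higher and 8 lower (median -0.19, or 0.00 with no filter on low counts). *H19* had 185, 172 and 171 normalized counts in rho0 and 850, 767 and 800 in PKO-1 (log2 fold change 2.19, SE 0.188), and 21.8 in PKO-6. *Snrpn* had 61.0, 68.7 and 49.1 against 399, 332 and 308 (2.53, SE 0.165), with the overlapping *Snurf* at 2.45, and averaged 0.618 in PKO-6. *Peg10* rose by 1.27 (SE 0.0517). *Dlk1* fell from 387, 276 and 287 to 45.2, 53.3 and 38.3 (-2.80, SE 0.202) and *Plagl1* by 1.24 (SE 0.0873). *Kcnq1ot1*, an antisense RNA, had 8056, 24608 and 19432 in rho0 and 6332, 6787 and 9101 in PKO-1, groups that overlap (-1.23, SE 0.324, adjusted p = 0.00451), with rho0 replicate 1 below the other rho0 libraries. Its call was lost on removing PKO-1 replicate 1 (adjusted p = 0.0226), PKO-1 replicate 2 (0.0196), rho0 replicate 2 (0.0277) or rho0 replicate 3 (0.0163), and in a fit of the 6 libraries alone (0.0129).

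Lysosome genes had 12 of 48 tested higher and 10 lower (median 0.12). Besides *Ctsk*, *Ctsc*, a protease that activates granule enzymes, fell from 443, 486 and 466 to 3.57, 4.26 and 9.31 normalized counts (log2 fold change -6.29, SE 0.252). *Ctsz* and *Ctsd* rose by 1.21 (SE 0.0767) and 1.14 (SE 0.0785), and *Tfeb*, the transcription factor that drives lysosome genes, by 1.09 (SE 0.131). The cathepsins thus split, with *Ctsd* going from 7392, 6095 and 6119 to 14616, 14560 and 14083 with no overlap. Of 24 tested genes of the RNA exosome and small noncoding RNA, 2 were higher and 2 lower. Without rho0 replicate 1, 2 were higher and 4 lower. The higher count was 1 without PKO-1 replicate 1, rho0 replicate 2 or rho0 replicate 3, and with chromosome medians removed 1 was higher and 0 lower. *Rmrp* and *Rpph1*, the RNAs of RNase MRP and RNase P that have been proposed as RNAs imported with PNPase, were not called, at 440751, 320633 and 307104 against 304191, 394274 and 302206 for *Rmrp* (-0.09, SE 0.181) and at 0.22 (SE 0.0990) for *Rpph1*. These counts are of whole cells, so import itself is not measured by them.

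Calls were unevenly spread over chromosomes. On chromosome 9, 305 of 776 tested genes (39.3%) were lower and 38 (4.90%) higher, with a median log2 fold change of -0.44 and 79.4% of values below 0. On chromosome 13, 193 of 558 (34.6%) were lower and 52 (9.32%) higher (median -0.35), and on chromosome 4, 223 of 894 (24.9%) were lower and 70 (7.83%) higher (median -0.22). Chromosomes 5 and 3 leaned the other way. On chromosome 5, 280 of 876 genes were higher and 76 lower (median 0.32), and on chromosome 3, 168 of 684 were higher and 79 lower (median 0.20). Chromosome 15 had a median of 0.15, and the other chromosomes lay between -0.05 and 0.10. In PKO-6 against rho0, which shares the rho0 libraries, the medians were -0.06, 0.03 and -0.03 on chromosomes 9, 13 and 4 and 0.26 and 0.25 on chromosomes 5 and 3. Against TM6, PKO-1 had medians of -0.39 and -0.27 on chromosomes 9 and 13 and 0.09 on chromosome 5, and rho0 had 0.04, 0.04 and -0.21. The low values on chromosomes 9 and 13 were those of PKO-1 and the difference on chromosome 5 came mostly with low values in rho0. On chromosomes 4 and 3 the medians against TM6 were -0.04 and 0.04 in PKO-1 and 0.16 and -0.17 in rho0. The differences on these 2 chromosomes thus also came mostly with the rho0 values. The cause was not tested. After each chromosome's median was removed 4099 genes were called, and the integrated stress response had 35 lower and 1 higher, and DNA replication and mitosis 18 higher and 0 lower. Of the 199 genes that the naming rule picked, *Mterf3* (-0.49), *Exog* (-0.27), *Slc25a36* (-0.22), *Pink1* (-0.32), *Fis1* (0.31), *Gabpa* (0.45), *Mrpl32* (-0.32), *Mrpl4* (-0.18), *Rpl4* (-0.47), *Pfkp* (-0.17), *Scap* (-0.22) and *Mb21d1* (-0.07) were among the 22 no longer called, and 0 of the 199 changed direction.

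**Figure D5:**
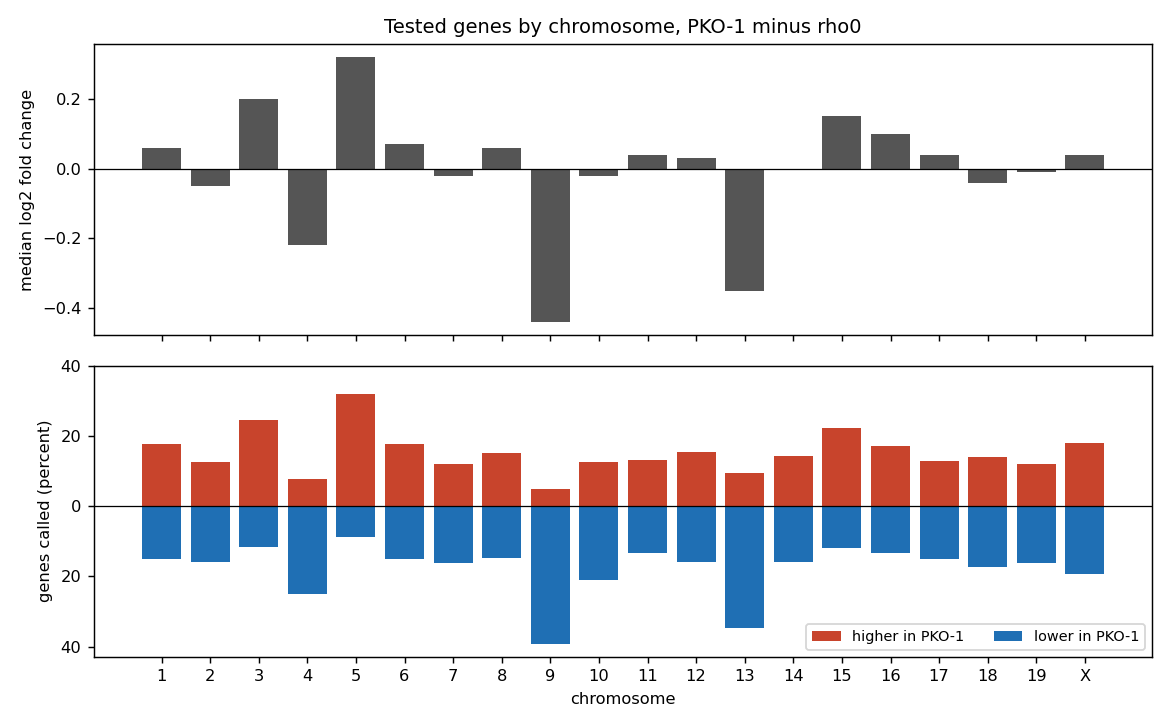
Median log2 fold change of PKO-1 over rho0 for the tested genes of each chromosome (upper panel) and the percent of them called higher (red, up) or lower (blue, down; lower panel). Chromosomes 9 (-0.44) and 13 (-0.35) lie furthest below 0, and chromosome 5 (0.32) furthest above.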

How the data were processed

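RNA was sequenced from 12 cultures of 4 MEF lines as ribosomal RNA-depleted, strand-specific libraries. The authors merged technical duplicate libraries and aligned the reads within RSEM 1.2.25 to RefSeq transcripts of GRCm38. The RSEM reference was built with the options for both Bowtie and Bowtie2. Transcripts were summed to genes, and expected counts per gene, with TPM per transcript, were deposited for each library. Expected counts are estimated counts, of which 12.5% of values carried decimals. The submitters' processing notes also name bcl2fastq and DESeq2 1.18.1, and the strand setting of the counting is not given in the sources used here. This limit holds for other named genes that overlap a gene on the other strand, for example *Slirp* with *Snw1* and *Ccna2* with *Exosc9*.

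Here the deposited expected counts were rounded to whole numbers, and the 14026 of 24453 genes kept by edgeR's expression filter (minimum count 10) were fitted over all 4 lines, with 3 libraries each, using TMM scaling and the quasi-likelihood test of edgeR 4.0.16 in R 4.3.3. The contrast was PKO-1 minus rho0, two-sided, with Benjamini-Hochberg adjustment over all tested genes. A gene was called at an adjusted p below 0.01 and a log2 fold change beyond 0.5. Normalized counts are counts divided by the TMM-scaled library size relative to the mean library, and the standard error was taken as the log2 fold change over the root of F. TPM served only for marker levels. Total counts of 47164860 to 62222928 per library set the counting precision. DESeq2 1.42.0 and the alternatives in the closing section were also run.

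The 37 gene lists and the comparison were chosen with earlier results of these data known. The naming rule took *Pnpt1*, the 12 called genes in each direction with the largest fold change at a mean of at least 100 normalized counts, up to 3 per direction and list by the same measure, and 28 fixed genes, which gave 199 genes. Other members of the lists are named as examples that were chosen after their values were seen. Samples were grouped by their titles, and no library was left out. Results for a few genes are not reported here.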

Additional observations from a re-analysis of the deposited data

Results flagged for a closer look

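PKO-1 and PKO-6 are both *Pnpt1* knockout clones, and their effects against rho0 differed. In the contrast of PKO-1 with PKO-6, from which the rho0 libraries drop out, 2522 of the 4590 genes called between PKO-1 and rho0 also passed the call rule by edgeR. Of all tested genes 29.1% were called in that contrast, and since both contrasts use the PKO-1 libraries the overlap is given as a count only. *Pnpt1* itself differed between the clones, with PKO-1 below PKO-6 by a log2 fold change of -0.65 (SE 0.0864, adjusted p = 1.92e-05). In all, 387 of the 14026 tested genes were called in both clones against rho0 but in opposite directions. Over all tested genes, PKO-6 had 1870 called higher and 1144 called lower than rho0. Both contrasts use the rho0 libraries, so the 387 is also given as a count only. Of the integrated stress response 28 genes lay lower in PKO-1 by this contrast, and 17 genes of DNA replication and mitosis lay higher.

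Among the largest opposite effects, *H2-Q7*, a member of a gene family with near-identical copies, differed by -8.44 between PKO-1 and PKO-6 on the log2 scale, with 1.54 normalized counts in PKO-1, 291 in rho0 and 550 in PKO-6. *Slc14a1* differed by 8.24, with means of 7203, 162 and 24.1 in the same order. *Slit3* differed by 7.40, with means of 2911, 136 and 16.9. Each line is a single clone, so a difference between clones and a difference between cultures of other founders cannot be told apart. No outlier test was applied to groups of 3.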

How the results depend on the processing

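The count of 4590 called genes stayed between 4099 and 4908 under DESeq2 (4584), DESeq2 size factors (4578), no filter on low counts (4741), a fit of the 6 libraries alone (4251), omission of *Rn45s* (4578), removal of chromosome medians (4099) and omission of each library in turn (4150 to 4908). It was 2575 when fold changes were tested for exceeding 0.5 on the log2 scale, 7561 by the adjusted p alone and 2202 with a log2 fold change above 1. *Pnpt1* was called under each of these, with log2 fold changes of -2.13 to -2.05, the same range as when each library was omitted. The replicate numbers did not pair the cultures: deviations of libraries with the same number correlated at 0.158, -0.199 and 0.126. With the replicate number as a block 4524 genes were called and *Pnpt1* was at -2.09. For the 198 genes of the naming rule other than *Pnpt1*, 2689 values under alternatives kept the outcome of the main fit, called or not. A call was lost in 79 and gained in 3, and 0 changed direction. Of the losses 38 came with the test for exceeding 0.5 and 22 with chromosome medians removed. The test for exceeding 0.5 left 30 genes of the integrated stress response lower, and it reduced the counts of other lists, for example to 5 higher and 2 lower nuclear OXPHOS subunits. At this depth 18776 of the 24453 genes of the table had a count in some library, and 10427 were not tested. The causes of these shifts were not tested.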

Other observations

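Some genes at or near 0 in rho0 were well expressed in PKO-1. *Lum*, which encodes lumican, a small proteoglycan of collagen fibrils, had 0 normalized counts in rho0 and 116 on average in PKO-1, and *Dpt*, dermatopontin of the dermal matrix, had 2.82 and 173. *Kcnj2*, an inward rectifier potassium channel, had 0 and 148, and *Aldh3a1*, an aldehyde dehydrogenase, had 0.323 and 112. TM6 averaged 7.70 normalized counts of *Lum*, 14 of *Dpt*, 80.9 of *Kcnj2* and 6.56 of *Aldh3a1*. These genes were picked after their values were seen, for having at most 3 counts in every rho0 library and a mean of at least 100 normalized counts in PKO-1.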
